A study of Mus musculus with 6 samples.

Results

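Fabp3, Fabp5, Lpl and Acadm are 4 genes that stand at successive steps between circulating fat and its oxidation, and their transcripts were compared between hearts of Pgc1b knockout and wild-type mice. They were chosen by name, with earlier results of these data known. Every probe set with values whose only gene symbol was among these was taken. This gave 5 probe sets of 643 and 4 genes of 494 measured. Fabp5 had a pair of probe sets and each other gene had 1. Of the 7 probe sets that the platform annotation assigns to these genes, 2, a second one of Fabp3 and a second one of Lpl, had no values in the table and were not analysed here. The hearts were those of 3 Pgc1b knockout mice and 3 wild-type mice, both on a mixed sv129 and C57BL/6 background, with 1 expression array per heart. The labels name no promoter or cell type that would limit the deletion to heart muscle, and give no age or sex. Pgc1b itself was not analysed here, so its transcript could not be used to check the genotypes. Pgc1b, now named Ppargc1b, encodes a coactivator, a protein that helps nuclear receptors to switch on genes, among them the peroxisome proliferator-activated receptors and the oestrogen-related receptors. Of the defining heart muscle markers, Actc1, the cardiac actin, had the brightest signal of all gene probe sets on each array, at 14.12 ± 0.01 in knockout and 14.11 ± 0.03 in wild-type hearts (log2 signal, SD, n = 3 each).

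The adult heart draws most of its energy from fatty acids. Lipoprotein lipase, the product of Lpl, works on the capillary wall, where it frees fatty acids from triglycerides of circulating lipoproteins. Inside the cell, fatty acids are not soluble and are carried by small binding proteins, of which Fabp3 encodes the form of heart and skeletal muscle and Fabp5 a form first known from skin and also found in endothelial cells and macrophages. Acadm encodes medium-chain acyl-CoA dehydrogenase, the enzyme of the mitochondrial matrix that starts each round of oxidation of fatty acids of medium chain length. In humans its gene is a known target of both receptor families named above.

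Because the deleted coactivator acts at promoters, the 250 bases before the RefSeq transcription start are shown for the 2 of the 4 genes that matched the promoter table used, Acadm and Fabp3. Capitals mark AAGGTCA, the half-site form that oestrogen-related receptors bind, on either strand. The Acadm window is chr3:153944644-153944893 on the minus strand and the Fabp3 window is chr4:130308488-130308737 on the plus strand, both of build GRCm38.p6, and both are written 5′ to 3′ in the direction of the gene.
Acadm: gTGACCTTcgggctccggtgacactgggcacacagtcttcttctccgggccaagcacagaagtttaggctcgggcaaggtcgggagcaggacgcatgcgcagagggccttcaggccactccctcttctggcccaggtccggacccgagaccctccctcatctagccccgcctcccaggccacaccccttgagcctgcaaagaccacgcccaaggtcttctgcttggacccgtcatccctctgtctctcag
Fabp3: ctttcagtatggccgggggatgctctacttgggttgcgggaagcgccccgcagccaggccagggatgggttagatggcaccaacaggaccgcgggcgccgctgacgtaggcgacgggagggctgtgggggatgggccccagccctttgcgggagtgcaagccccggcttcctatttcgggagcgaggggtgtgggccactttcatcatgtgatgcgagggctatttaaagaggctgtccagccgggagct
The Acadm window held 1 match, written TGACCTT because it lies on the opposite strand, from 249 to 243 bases before the start. The Fabp3 window held 0. The shorter half-site AGGTCA, which is part of AAGGTCA, gave the same match and no other in these windows. On either strand, AAGGTCA was present in 4.08% and AGGTCA in 14% of the 32851 windows of this length in the table. A match describes the letters only and does not show that a receptor binds there.

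The 4 genes had nearly equal mean signals in both genotypes, and none of their probe sets passed the test. By limma with Benjamini-Hochberg adjustment over all 643 probe sets, 0 of the 5 passed an adjusted p of 0.05, beside 0% of all probe sets. Their adjusted p-values ran from 0.843 to 0.996, and 0 of the 5 had an unadjusted p under 0.05, beside 10.3% (66) of all probe sets. In 0 of the 5 did the 3 knockout values lie apart from the 3 wild-type values, beside 18.7% of all probe sets. The median difference of the 5 was 0.00 on the log2 scale, beside 0.01 over all probe sets, and their sizes of difference stayed at or under 0.04, beside a median size of 0.10 over all probe sets. In whole hearts, a change in the number of cells of a type and a change in RNA per cell cannot be told apart.

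**Figure D1:**
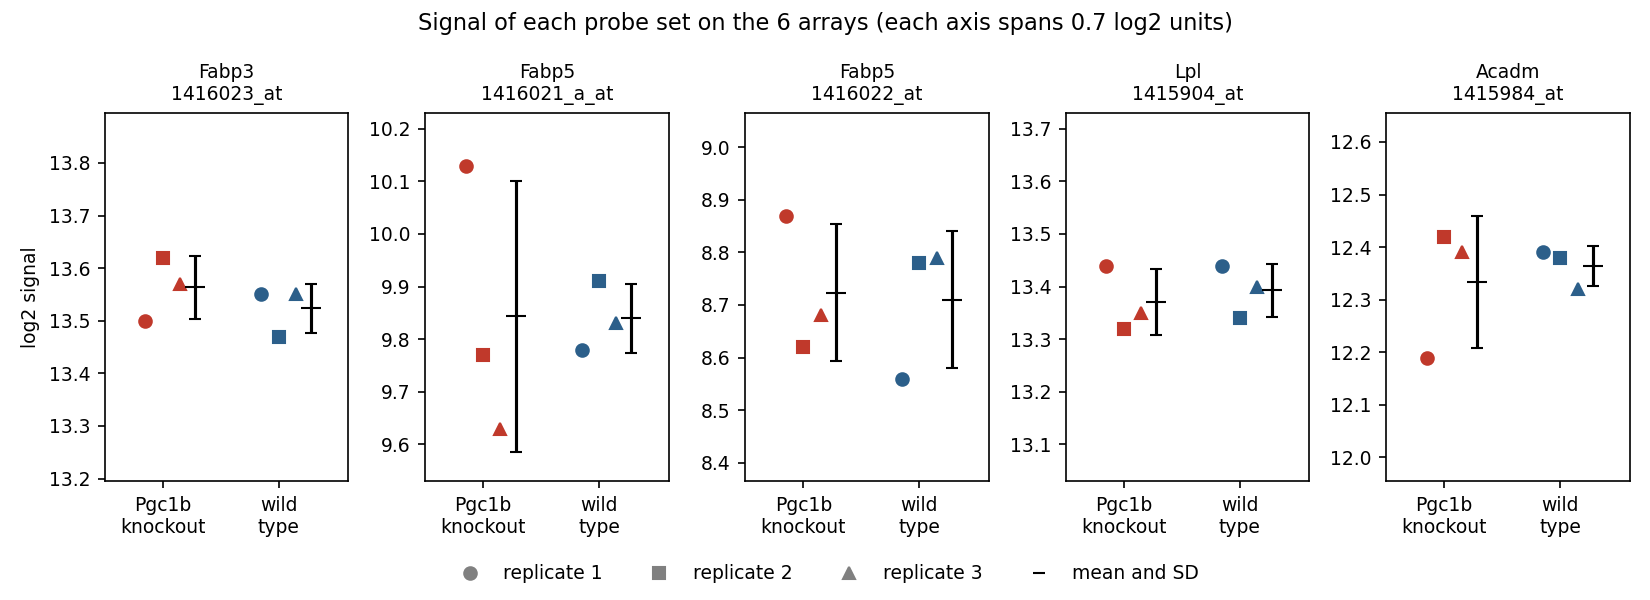
Log2 signal of the 5 probe sets of Fabp3, Fabp5, Lpl and Acadm on each array, with the 3 knockout hearts on the left and the 3 wild-type hearts on the right of each panel; symbols mark replicates, and the bar beside each group gives its mean and SD. The groups overlap in every panel, and knockout replicate 1 is the highest or lowest knockout array in all 5, beside 73.4% of all probe sets.

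Lpl, the step of supply, had log2 signals of 13.44, 13.32 and 13.35 in knockout hearts, against 13.44, 13.34 and 13.40 in wild-type hearts. The groups covered nearly the same narrow range, 0.12 wide in knockout and 0.10 in wild-type hearts. The means were 13.37 ± 0.06 in knockout and 13.39 ± 0.05 in wild-type hearts (SD, n = 3 each), a difference of -0.02 with a 95% interval of -0.19 to 0.15 (limma adjusted p = 0.952). As a share, the knockout level was 98.7% of wild type, with an interval of 87.9% to 111%.

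Fabp3, the carrier of heart muscle, had signals of 13.50, 13.62 and 13.57 in knockout hearts, against 13.55, 13.47 and 13.55 in wild-type hearts. Knockout replicate 2 was the highest and wild-type replicate 2 the lowest of the 6, and the others lay between them in mixed order. The means were 13.57 ± 0.06 in knockout and 13.52 ± 0.05 in wild-type hearts (SD, n = 3 each). The difference, 0.04 (95% interval -0.12 to 0.21, limma adjusted p = 0.843), corresponds to a knockout level of 103% of wild type with an interval of 91.8% to 115%. On the log2 scale this was the narrowest interval of the 5 probe sets, with that of Lpl nearly as narrow.

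Fabp5, the carrier also found outside muscle cells, was measured by a brighter and a dimmer probe set. The brighter one had signals of 10.13, 9.77 and 9.63 in knockout hearts, against 9.78, 9.91 and 9.83 in wild-type hearts. Knockout replicate 1 was the highest and knockout replicate 3 the lowest of all arrays, so that the knockout values enclosed the wild-type values. The means were equal at 9.84, with an SD of 0.26 in knockout and 0.07 in wild-type hearts (n = 3 each), and the difference of 0.00 had the widest interval of the 5, -0.30 to 0.30 (limma adjusted p = 0.996), or 81% to 124% of wild type. The dimmer probe set had signals of 8.87, 8.62 and 8.68 in knockout hearts, against 8.56, 8.78 and 8.79 in wild-type hearts. Knockout replicate 1 was again the highest, while the lowest array was now wild-type replicate 1. The difference was 0.02 (95% interval -0.22 to 0.25, limma adjusted p = 0.976), or 101% of wild type with an interval of 86% to 119%. Without knockout replicate 1 the differences were -0.144 for the brighter and -0.0553 for the dimmer probe set (limma adjusted p = 0.494 and 0.811). A pseudogene, Fabp5l2, bears a related name in RefSeq, and whether the probes also bind such copies was not tested.

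Acadm, the step of oxidation, had signals of 12.19, 12.42 and 12.39 in knockout hearts, against 12.39, 12.38 and 12.32 in wild-type hearts. Knockout replicate 1 lay below all other arrays, and the other knockout arrays lay within or above the wild-type range. The means were 12.33 ± 0.13 in knockout and 12.36 ± 0.04 in wild-type hearts (SD, n = 3 each). The difference was -0.03 (95% interval -0.23 to 0.17, limma adjusted p = 0.922), a knockout level of 97.9% of wild type with an interval of 85.3% to 112%. Without knockout replicate 1 it was 0.0415 (limma adjusted p = 0.811).

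**Figure D2:**
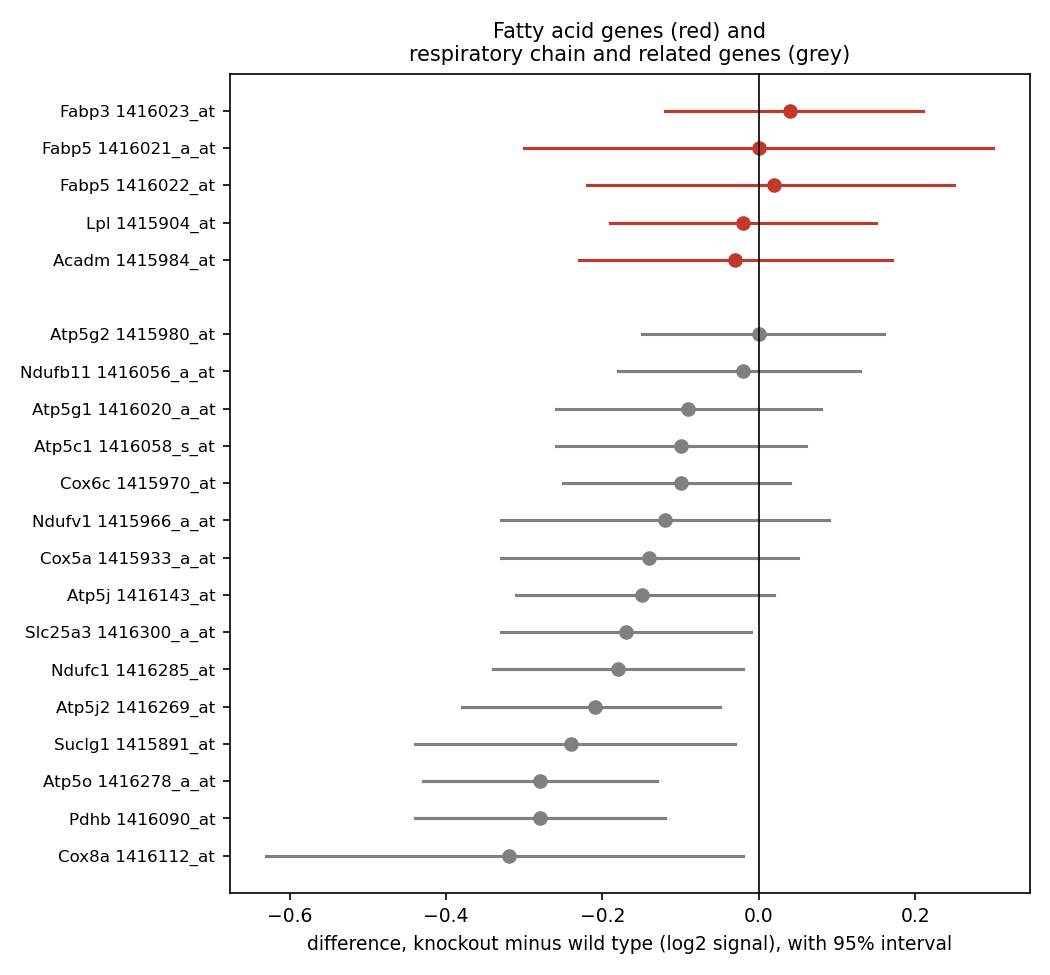
Difference between knockout and wild-type means in log2 signal (points) with the 95% interval from limma (lines), for the 5 probe sets of the fatty acid genes in red and for 15 genes of the respiratory chain, ATP synthase, pyruvate dehydrogenase and citric acid cycle, with the phosphate carrier Slc25a3 among them, in grey. The red points lie between -0.03 and 0.04, and the grey ones between -0.32 and 0.00.

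Knockout replicate 1 was the highest or the lowest of the 3 knockout arrays in all 5 probe sets, which include the pair of Fabp5, beside 73.4% of all probe sets. It was the extreme of all 6 arrays in 4 of them, beside 36.4%. Lpl is counted among these 4, though knockout replicate 1 and wild-type replicate 1 were both 13.44 there. Such counts over 5 probe sets do not show that this array stands apart in these genes more than in others. Compared with the mean of the other knockout arrays, knockout replicate 1 lay 0.43 and 0.22 higher in the brighter and dimmer Fabp5 probe sets and 0.11 higher in Lpl. It lay lower in Acadm (-0.22) and Fabp3 (-0.09). All 5 probe sets had a wider range over the knockout than over the wild-type hearts, beside 54.4% of all probe sets. The groups' ranges are described here without a test.

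Control probe sets also varied between the arrays. The hybridisation spikes, bacterial and phage transcripts added at hybridisation, had a mean log2 signal of 9.52 ± 0.18 on knockout and 9.89 ± 0.23 on wild-type arrays (SD, n = 3 each), without overlap. With their level as a covariate, the differences were 0.0644 for Fabp3, 0.00478 for Lpl and 0.000154 for Acadm. They were 0.0491 for the brighter and -0.12 for the dimmer Fabp5 probe set, and 0 of the 5 probe sets passed. Since the spike levels did not overlap between genotypes, this fit can separate spike level from genotype only weakly. The poly-A spikes, a control of labelling, were highest on knockout replicate 1, at 7.61, and were 7.32 and 6.49 on the other knockout arrays, against 6.91, 7.56 and 6.76 on the wild-type arrays. Their part in the values of knockout replicate 1 was not tested. For Actb, the signal near the 3′ end minus that near the 5′ end reflects RNA quality and amplification. This measure was 0.63 ± 0.11 in knockout and 0.75 ± 0.02 in wild-type hearts, also without overlap. The same measure for Gapdh was 0.08 in both. The part of the Actb measure in the differences of the fatty acid genes was not tested.

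In signal, 3 of the 4 genes were among the brightest measured. Among the 643 gene probe sets, counted from the brightest, Fabp3 ranked 2 on every array, Lpl ranked 3 to 5 and Acadm 20 to 26, while the Fabp5 probe sets ranked 78 to 113 and 171 to 199. Expressed as percentiles, these were at least 99.8 for Fabp3, 99.4 for Lpl and 96.1 for Acadm, and 82.6 to 88 and 69.2 to 73.6 for the Fabp5 probe sets. These ranks describe signal on the array among the probe sets with values. Probe sets differ in how strongly they bind, so the ranks do not order the genes by transcript number, and saturation of the brightest probes was not tested.

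**Figure D3:**
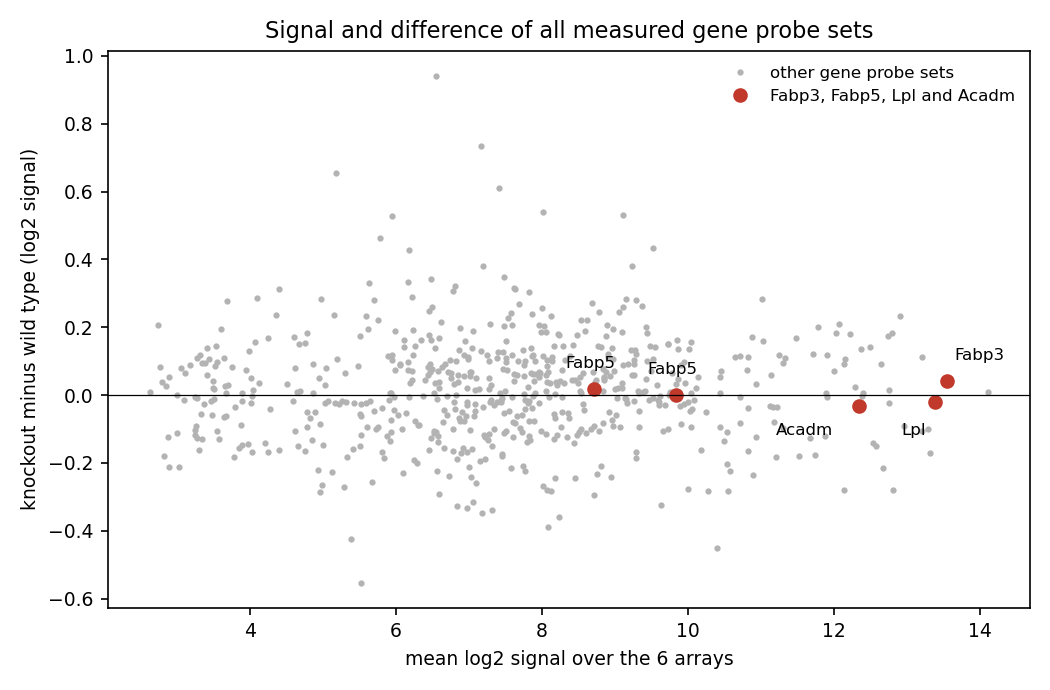
Mean log2 signal over the 6 arrays (horizontal axis) and difference of knockout minus wild-type means in log2 signal (vertical axis) for 643 gene probe sets, with those of Fabp3, Fabp5, Lpl and Acadm in red. The red points lie close to 0 in the middle and at the bright end of the range, with Fabp3, Lpl and Acadm above 12.

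Acadm was set beside other nuclear genes of mitochondrial metabolism, since its enzyme works in the same compartment and feeds the respiratory chain. The mean of the 15 measured genes of the respiratory chain, ATP synthase, pyruvate dehydrogenase and citric acid cycle, the mitochondrial phosphate carrier Slc25a3 included, was 12.17, 12.21 and 12.20 in knockout hearts, against 12.35, 12.37 and 12.35 in wild-type hearts. Each knockout value lay below each wild-type value, which earlier results of these data had shown when the list was drawn up. By limma 0 of the 15 passed singly. Acadm minus this mean was 0.01, 0.21 and 0.19 in knockout hearts, against 0.04, 0.01 and -0.03 in wild-type hearts. Knockout replicates 2 and 3 lay above the wild-type range and knockout replicate 1 within it. The difference between genotypes was 0.13 (exact two-sided permutation p = 0.2). With 3 against 3 this test cannot give less than 0.1, and the list was drawn up with its lower knockout values known. For both reasons it cannot decide whether Acadm and these genes responded differently.

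**Figure D4:**
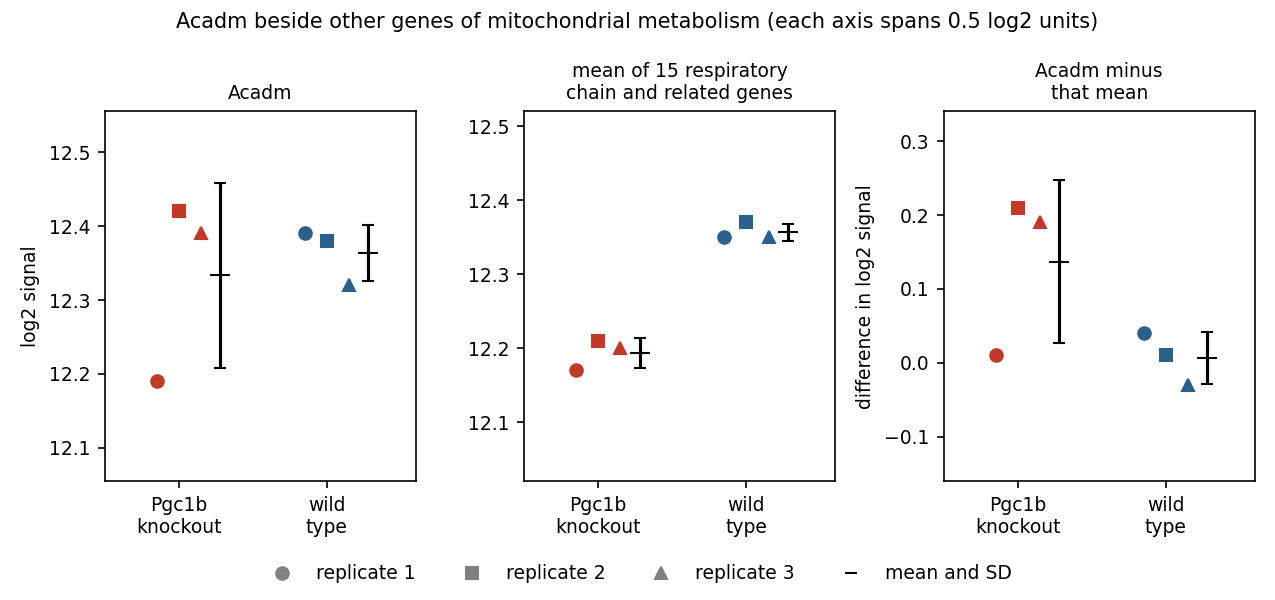
Acadm log2 signal (left), the mean log2 signal of 15 respiratory chain and related genes (middle) and the difference between them (right) on each array, with 3 knockout hearts left of 3 wild-type hearts and the mean and SD beside each group. In the right panel knockout replicates 2 and 3 stand at 0.21 and 0.19 and the other 4 arrays between -0.03 and 0.04.

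Across the 6 hearts, the correlations between the 4 genes had both signs, and so few arrays cannot show whether the genes vary together. Over 7 pairs of probe sets, none of the correlations passed the Benjamini-Hochberg adjustment (exact permutation, adjusted p from 0.28). By Pearson r the strongest was that of the brighter Fabp5 probe set with Acadm, which was negative, with r = -0.84 (exact permutation p = 0.0486, adjusted 0.28) and Spearman rho = -0.77 (exact permutation p = 0.103, adjusted 0.318), and r = -0.86 after centring within genotype. Without knockout replicates 1 and 3, the arrays farthest from the median of Fabp5, r was -0.38 over the other 4. Leaving them out narrows the range of Fabp5, so this cannot show whether the relation rests on those arrays. By rank the strongest was that of Fabp3 with the brighter Fabp5 probe set, with rho = -0.83 (exact permutation p = 0.0583, adjusted 0.318) and r = -0.63 (exact permutation p = 0.16, adjusted 0.28). Without knockout replicate 2 and wild-type replicate 2, the arrays farthest from the median of Fabp3, r was -0.99 over the other 4, and it was -0.70 after centring within genotype. Lpl and Acadm had r = -0.65 and rho = -0.60 (exact permutation p = 0.144 and 0.242), and r = -0.95 without knockout replicate 1 and wild-type replicate 1. The Fabp5 probe sets, which target 1 gene, followed each other with r = 0.72 and rho = 0.71 (exact permutation p = 0.0958 and 0.136, both above 0.05), and with r = 0.78 without knockout replicates 1 and 3. Fabp3 and Acadm, both active within muscle cells, had r = 0.49 and rho = 0.60 (exact permutation p = 0.331 and 0.242), with r = 0.93 without knockout replicate 2 and wild-type replicate 2 and 0.65 after centring within genotype. Lpl had r = -0.33 with Fabp3 and 0.49 with the brighter Fabp5 probe set (exact permutation p = 0.522 and 0.351), and without the 2 farthest arrays these were -0.76 and -0.26.

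The genes whose values were most like those of each gene were found by Pearson r over the 6 arrays, as a description with no test, since the highest r over 595 or 596 other probe sets is high by selection. For Fabp3 they were Map1lc3b, a protein of autophagosome membranes, with r = 0.99, and Prnp, the prion protein gene, with r = 0.95. For Acadm they were Mrpl20, a protein of the mitochondrial ribosome, and Psap, a precursor of lysosomal activators of sphingolipid breakdown, both with r = 0.96. For Lpl they were a dim probe set of Klk1, a kallikrein protease, with r = 0.96, and Fmod, a matrix proteoglycan, with r = 0.92. The Klk1 signals lay between 3.64 and 4.24. For the brighter Fabp5 probe set they were a dim probe set of Sdc1 (r = 0.95) and Rplp2, a ribosomal protein gene (r = 0.94).

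Few other genes of the pathway had values. Lists of 150 genes for fatty acid uptake and binding, lipoprotein lipolysis, activation, the carnitine shuttle, mitochondrial and peroxisomal oxidation, lipid storage and the regulators of these steps held 5 measured genes, of which 0 passed in either direction. The only one besides the 4 was Sdc1, a cell surface proteoglycan that binds lipoproteins. Its brighter probe set had signals of 5.14, 4.99 and 5.35 in knockout hearts, against 5.42, 5.67 and 5.68 in wild-type hearts, a difference of -0.43 (95% interval -0.70 to -0.15) that did not pass (limma adjusted p = 0.363), and its dimmer probe set differed by 0.01. Both Sdc1 probe sets were dim, with mean signals of 5.37 and 4.68, under the level of 6 used to filter dim probe sets. Markers of cells that could carry Fabp5 or Lpl were sparse: of 9 endothelial markers only Tie1 was measured, at 7.48, 7.56 and 7.74 in knockout hearts, against 7.73, 7.69 and 7.60 in wild-type hearts (difference -0.08, limma adjusted p = 0.745), and markers of macrophages and fat cells were not analysed here.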

How the data were processed

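RNA of 3 knockout and 3 wild-type hearts was amplified from 25 ng before labelling, per the labels' protocols, with 1 Affymetrix array per heart. The deposited values are log2 signals. Per the submitters' processing notes, the authors used GCOS, Partek and RMA, without version or role. RMA equalises the distribution of arrays, so differences are relative to other genes. No genome build is given in the sources used here. Of 45101 rows, 707 had values (643 gene and 64 control probe sets), and 0 columns stayed unmapped. The platform annotation gave 1 symbol to 597 of the 643, several to 26 and none to 20. All 597 matched RefSeq (GRCm38.p6). Promoters are RefSeq's.

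The genotype test was limma's (version 3.58.1, R 4.3.3, lmFit and eBayes, two-sided, no covariate, no filter) over 643 probe sets. The fit was also run on simulated independent arrays. Their known changes were larger than the differences of the 4 genes, so that run does not bear on these. Values per array were compared by exact permutation (Python 3.11.15). For lists, each gene is represented by its brightest probe set. Named genes are the 4 genes, the 2 most alike by Pearson r for each, and measured genes of the fixed lists, of which those with many measured genes or without bearing on the 4 are given as counts or not described. Markers of heart muscle (2 of 11 measured), fibroblasts (2 of 7), red cells (2 of 5), endothelium (1 of 9) and neutrophils (1 of 4) had 0 genes past the adjusted p, and 5 further marker lists held no measured gene. The members and lists were chosen with earlier results of these data known. Array number limits the precision. The labels call the hearts biological replicates.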

Additional observations from a re-analysis of the deposited data

How the results depend on the processing

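With 3 arrays per genotype, differences of the size seen here cannot be told from 0, and the intervals give the sizes that remain possible. In all 14 alternatives (13 for the dimmer Fabp5 probe set), 0 probe sets of Fabp3, Fabp5, Lpl and Acadm passed (limma adjusted p from 0.494). Over all probe sets, 0 passed in every alternative except a prior variance that follows the level, where 2 did, Atp5o (-0.28) and a probe set of more than 1 gene symbol (-0.45), both named after their values were seen. At an unadjusted p under 0.05 the count was 66, and it ran from 42 without knockout replicate 2 to 88 without knockout replicate 1. The signs of these small differences were not stable. Array weights gave -0.0716 for the brighter and -0.0291 for the dimmer Fabp5 probe set. The hybridisation spike covariate gave -0.12 for the dimmer Fabp5 probe set, 0.00478 for Lpl and 0.000154 for Acadm. Centring gave -0.0023 for Fabp3 and -0.0428 and -0.0258 for the Fabp5 probe sets. Quantile normalization gave -0.00887 and -0.0072 for the Fabp5 probe sets and 0.0353 for Lpl. Fabp3, ranked 2 on every array, could not differ under it. Without 1 array at a time, the range was -0.144 to 0.109 for the brighter and -0.059 to 0.0693 for the dimmer Fabp5 probe set, -0.054 to 0.00666 for Lpl, -0.0743 to 0.0415 for Acadm and 0.0122 to 0.072 for Fabp3. The cause was not tested. Acadm minus the respiratory chain mean kept its sign in 11 alternatives (0.0922 to 0.192, exact permutation p from 0.1). That list was drawn up with its lower knockout values known, so the kept sign is no independent evidence. Of the 11, centring, the dim filter and the replicate block cannot change this difference. Prior variance, array weights and 1 probe set per gene do not apply.

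The labels do not say that the replicate numbers pair the hearts. Deviations of same-numbered arrays from their group means correlated at -0.24, -0.10 and 0.19. Those of other-numbered arrays ran from -0.30 to 0.33. So few arrays cannot decide such pairing. With the number as a replicate block, 0 probe sets passed and 51 had an unadjusted p under 0.05. Each block holds an array of each genotype, so it can alter p-values but not differences. These stayed as in the main fit: 0.0413 for Fabp3, 0.00081 and 0.0178 for Fabp5, -0.0189 for Lpl, -0.0312 for Acadm and 0.129 for Acadm minus the chain mean.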
